A study of Mus musculus with 8 samples.

Results

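In small pre (sPre)-B cells of Upf1-cKO mice, 52 genes were read that had 8 counts or fewer in each library of sPre-B cells of Ctrl mice. They were selected on measured values, namely a level under 0.1 CPM (counts of the gene divided by all counts of its library, times 1000000) in both Ctrl sPre libraries and of at least 0.3 CPM in both cKO sPre libraries. Of the 27179 genes in the table, 22889 had at least 1 count, and 70 passed both limits. Of these 70, 6 had no RefSeq symbol, 10 were olfactory receptor genes (Olfr) and 2 were immunoglobulin genes, and these were left out. The 52 genes were 0.643% of the 8084 eligible genes that lay under 0.1 CPM in both Ctrl sPre libraries. The opposite rule, with the 2 genotypes exchanged, found 10 genes. Because the sPre values chose the genes, the sPre difference between the genotypes is described here without a test.

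All mice were Upf1 Flox/Flox and carried 1 pre-arranged heavy chain allele (Igh B1-8hi/+), and they differed at the Mb1 locus, which was Mb1 +/+ in Ctrl and Mb1 Cre/+ in Upf1-cKO. Bone marrow was sorted by flow cytometry into early large pre (eLPre)-B cells and sPre-B cells, and total RNA depleted of ribosomal RNA was sequenced in 2 libraries for each genotype and stage. Mb1 (Cd79a) is active in the B lineage, so Cre acts in B lineage cells. The labels do not say whether the 2 libraries of a group came from separate animals, or whether libraries of the 2 stages share animals, so p-values measure only the spread between these libraries. For Ctrl, the Y-linked counts given below show that the 2 libraries of a stage came from different animals.

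UPF1 is an RNA helicase at the centre of nonsense-mediated mRNA decay, the pathway that removes transcripts with a premature stop codon and also many normal transcripts. In the scheme of the study, the heavy chain locus is completed at the eLPre stage, and sPre-B cells are small resting cells that rearrange the light chain loci.

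The libraries held 68516857 to 160426338 counts, so that 0.1 CPM corresponded to 6.85 to 16.04 counts and the smallest level that could be shown, taken as 3 counts, was 0.0187 to 0.0438 CPM (counting error only). Upf1 itself lay at 192 and 204 CPM in Ctrl and at 306 and 310 CPM in cKO sPre-B cells. This gene-level count includes exons outside the deleted part and does not check the deletion. Of 26 listed targets of the decay pathway, 22 were higher and 0 lower in cKO sPre-B cells (adjusted P under 0.05, edgeR quasi-likelihood test with Benjamini-Hochberg adjustment), and 21 were higher and 1 was lower in cKO eLPre-B cells. Over all genes tested, 19.8% were higher and 14.9% lower in sPre-B cells, and 14.5% and 16.9% in eLPre-B cells. Of 17 B lineage genes, 2 were higher and 4 lower in cKO sPre-B cells and 0 higher and 8 lower in cKO eLPre-B cells. The lowest level of Pax5 and Cd79b in any library was 265 CPM, for Cd79b, and Cd79a, the locus that carries Cre in cKO, was at 1525 and 1649 CPM in Ctrl and 440 and 344 CPM in cKO sPre-B cells. Replicate 2 of both Ctrl groups held 19733 and 28205 counts of Y-linked genes, and the other 6 libraries held 5 to 34, so the 2 Ctrl libraries of a stage came from animals of different sex, and the 2 cKO libraries showed no such difference. The cKO libraries held 299282 to 488796 counts of Xist, and replicate 2 of the Ctrl groups held 304 and 151. Male cells were thus read in Ctrl only, so sex was not balanced between the genotypes.

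The 52 genes were spread over 17 chromosomes. Chromosome 6 held 8 of them (15.4%, against 5.60% of all named genes with a count). Chromosome 4 held 6 (11.5% against 6.11%), of which 4 are interferon-zeta-like genes of 1 cluster. Protein-coding genes made up 40 of the 52 (76.9%, against 84.6% of all named genes with a count), long non-coding RNA genes 7 (13.5% against 7.57%), pseudogenes 3 (5.77% against 1.57%) and T cell receptor V segments 2. Exons were found in the GENCODE annotation for 51 genes, of which 6 had a single exon (11.8% against 8.40%). The median length of the merged exons was 2789 bases, against 3500 bases for all named genes with a count. Another counted gene overlapped 12 of the 52 (23.1% against 26.0%). The reads were aligned without regard to strand. If they were also counted so, the counts of these 12 genes can hold reads of the gene they overlap.

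RefSeq promoter windows of 300 bases (GRCm38.p6, 250 bases before to 50 after the start) were at hand for 40 of the 52 genes, in 44 windows. The letters TATAAA, read on either strand, were in 13 of the 44 windows (29.5%) and in 13.6% of all 32851 windows. On the strand of the gene and starting 20 to 40 bases before the start, where a TATA box lies, they were in 5 windows (11.4%) and in 1.99% of all windows, a position range that was chosen after the windows were seen. Read on either strand and each counted without regard to the others, further motifs were compared. The letters GGGCGG, the core of the GC box, were in 10 windows (22.7% against 35.7%). CAGCTG, an E-box that reads the same on both strands, was in 10 windows (22.7% against 16.3%) and CAGGTG in 6 (13.6% against 20.2%). GGAAGTG was in 4 (9.09% against 11.0%), the core of the interferon-stimulated response element in 2 (4.55% against 3.44%), TGANTCA in 2 (4.55% against 7.81%) and TGACGTCA in 0 (against 1.79%). The median ratio of observed to expected CpG was 0.439 in these windows and 0.384 in all. A match describes the letters of a window and not a bound site. The 5 genes with TATAAA close to the start are shown from 60 bases before to 20 bases after the start, 5′ to 3′ on the strand of the gene, with TATAAA in capitals.
Aire: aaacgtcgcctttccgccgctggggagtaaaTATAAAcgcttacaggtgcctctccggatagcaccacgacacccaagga
Asb5: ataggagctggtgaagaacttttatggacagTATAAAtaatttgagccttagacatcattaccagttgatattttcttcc
Gcg: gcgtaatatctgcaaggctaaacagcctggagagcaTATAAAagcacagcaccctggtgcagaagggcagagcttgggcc
Il17f: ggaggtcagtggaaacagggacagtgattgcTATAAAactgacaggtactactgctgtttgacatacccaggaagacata
Myoc: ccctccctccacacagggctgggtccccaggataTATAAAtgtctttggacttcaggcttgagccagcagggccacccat
These stretches lie at chr10:78043591-78043670 (minus strand) for Aire, chr8:54550271-54550350 (plus strand) for Asb5, chr2:62483634-62483713 (minus strand) for Gcg, chr1:20784251-20784330 (minus strand) for Il17f and chr1:162639090-162639169 (plus strand) for Myoc. The motif starts 29 bases before the start in Aire, Asb5 and Il17f, 26 in Myoc and 24 in Gcg. Of the 5, Asb5 and Il17f were also higher in cKO eLPre-B cells, as given below, and Aire, Gcg and Myoc did not pass that test.

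The levels in cKO sPre-B cells were low for most of the genes. The median was 0.700 CPM in replicate 1 and 0.512 CPM in replicate 2, with 9 genes at 1 CPM or more in both libraries and 3 at 2 CPM or more. The summed level of the 52 genes was 56.5 and 43.5 CPM in cKO sPre-B cells, 2.36 and 1.83 CPM in Ctrl sPre-B cells, 18.4 and 17.8 CPM in cKO eLPre-B cells and 4.63 and 5.01 CPM in Ctrl eLPre-B cells. In bulk RNA, RNA in a few cells and RNA at a low level in all cells cannot be told apart. Replicate 1 of cKO sPre was above replicate 2 for 41 of the 52 genes, with a median ratio of 1.39 and a range of 0.745 to 3.20. In both cKO sPre libraries the level was above both cKO eLPre libraries for 42 genes and below both for 7 genes, which were Slc7a3, Hoxa10, Plekhg4 and the 4 interferon-zeta-like genes Gm13271, Gm13272, Gm13279 and Gm13285. The rule required at least 0.3 CPM in both cKO sPre libraries, so the number above is no measure of a rise between stages. The share over all genes was not counted.

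**Figure D1:**
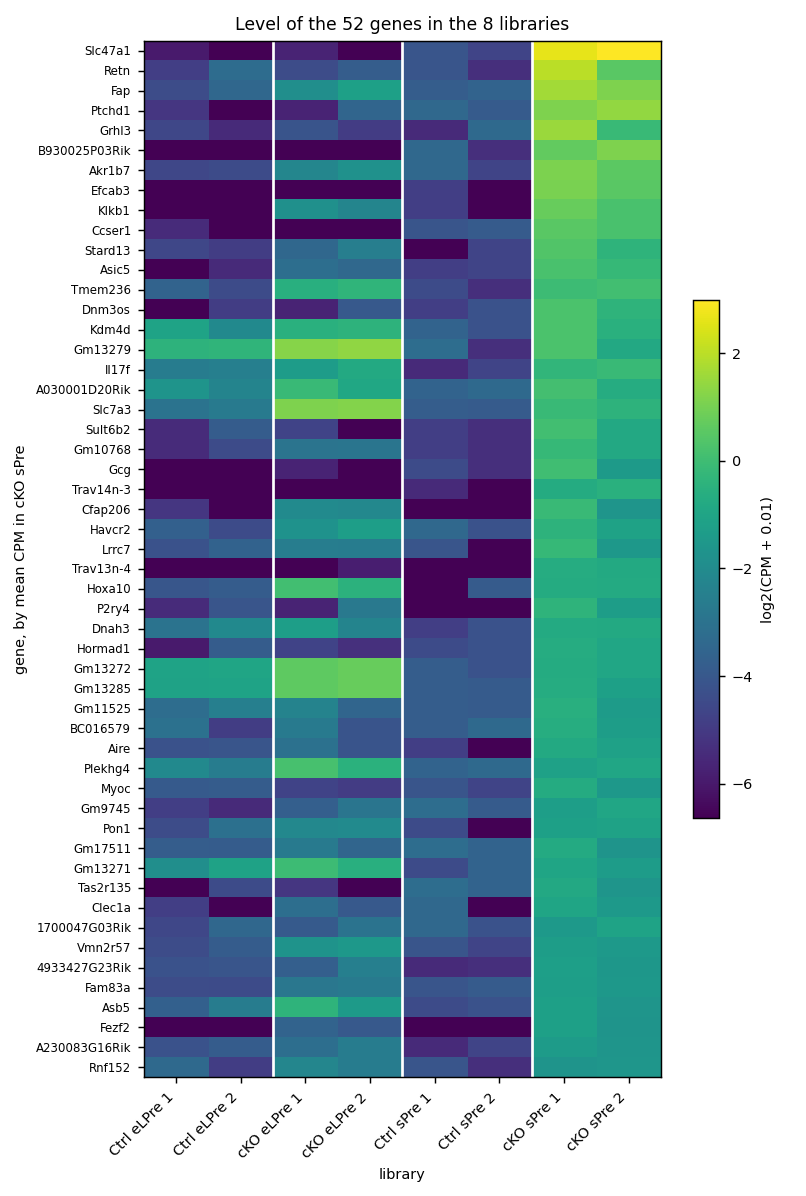
Level of each of the 52 genes (rows, ordered by the mean level in cKO sPre) in the 8 libraries (columns), as log2(CPM + 0.01) by colour. The cKO sPre columns are bright for every gene by selection, and in the cKO eLPre columns 12 genes reached 0.3 CPM in both libraries while 16 stayed under 0.1 CPM in both.

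At the limits of the rule, Fezf2 with 0.435 and 0.305 CPM and Gm17511 with 0.588 and 0.305 CPM in cKO sPre-B cells lay just inside, and Cyp27b1 with 0.577 and 0.296 CPM and 6820408C15Rik with 0.836 and 0.296 CPM just outside. In cKO sPre replicate 2 the first pair held 36 counts each and the second pair 35. On the Ctrl side, Gm9745 and Gm13279 were just inside with a higher Ctrl sPre level of 0.0976 CPM each, and Dnah7a and Gm5784 just outside with 0.102 CPM each. With a limit of 0.05 or 0.2 CPM in Ctrl, the rule found 28 or 181 genes, and with a limit of 0.5 or 0.2 CPM in cKO it found 27 or 99 genes. Without Ctrl sPre replicate 1 or 2 it found 113 or 112 genes, and without cKO sPre replicate 1 or 2 it found 69 or 105.

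The gene with the highest level was among the 8 transporters and other membrane proteins. Slc47a1, an exporter of organic cations in kidney and liver (chromosome 11, 61343400 to 61378842), was read with 529 and 941 counts in cKO sPre-B cells (6.23 and 7.96 CPM), with 4 and 2 counts in Ctrl sPre-B cells and with at most 1 count in each eLPre library. With the counts of the libraries of a group summed, the cKO sPre level was 182 times the Ctrl sPre level (95% counting interval 83.2 to 495). The interval leaves out the spread between libraries, and these values chose the gene, so it is no test. Its neighbour Slc47a2, 540 bases away, had 3 and 4 counts in cKO and 1 and 7 in Ctrl sPre-B cells. Ptchd1, a membrane protein with a patched domain on the X chromosome, was at 2.20 and 2.67 CPM in cKO sPre-B cells and at no more than 0.0854 CPM in the other 6 libraries. Both genes were therefore read well above the depth limit in cKO sPre-B cells alone among the 4 groups.

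Slc7a3, a transporter of cationic amino acids on the X chromosome, had another pattern. It was at 0.118 and 0.143 CPM in Ctrl eLPre-B cells and at 2.21 and 2.31 CPM in cKO eLPre-B cells, and then at 0.0610 and 0.0584 CPM in Ctrl sPre-B cells and 0.918 and 0.745 CPM in cKO sPre-B cells. The cKO libraries were above the Ctrl libraries at each stage, and the cKO sPre level was 0.362 times the cKO eLPre level (0.302 to 0.431). Slc7a3 overlaps Snx12, which was lower in cKO cells at both stages, with 26.5 and 27.0 CPM in Ctrl and 17.99 and 17.04 CPM in cKO sPre-B cells. The transmembrane protein gene Tmem236 was at 0.0748 and 0.0359 CPM in Ctrl eLPre, 0.670 and 0.774 CPM in cKO eLPre, 0.0366 and 0.0146 CPM in Ctrl sPre and 0.965 and 1.03 CPM in cKO sPre-B cells. It was thus read in the cKO libraries of both stages.

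Among the other receptors and channels, Asic5, of the acid-sensing ion channel family, was at 1.15 and 0.863 CPM in cKO sPre-B cells. P2ry4, a receptor for pyrimidine nucleotides, had 0 counts in both Ctrl sPre libraries and 65 and 48 counts in the cKO sPre libraries, at least 27.9-fold higher against a limit of 3 counts over the Ctrl group. The vomeronasal receptor gene Vmn2r57 was at 0.400 and 0.364 CPM and the bitter taste receptor gene Tas2r135 at 0.553 and 0.313 CPM in cKO sPre-B cells. Both belong to families of closely related genes, so their counts are uncertain. For P2ry4, Slc7a3 and Ptchd1, all X-linked, Ctrl sPre replicate 1, which held 290740 counts of Xist against 299282 and 391030 in the cKO sPre libraries, was at 0.0854 CPM or less.

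Secreted proteins and enzymes formed a further group of 8 genes. Retn, which codes for the hormone resistin, was at 3.95 and 1.45 CPM in cKO sPre-B cells, where the replicates differed most in absolute level, and at 0.0488 and 0.0146 CPM in Ctrl sPre-B cells. In eLPre-B cells Retn had 4 and 8 counts in Ctrl and 4 and 8 counts in cKO. Its neighbour Mcemp1, a membrane protein of mast cells and myeloid cells 5944 bases away, was at 0.720 and 0.642 CPM in Ctrl and 7.38 and 3.22 CPM in cKO sPre-B cells. The 16 myeloid genes of the marker list summed to 379 and 442 CPM in Ctrl and to 246 and 314 CPM in cKO sPre-B cells, with 0 of the 16 called higher and 2 called lower in that comparison. The 8 genes of mast cells and basophils summed to 1.89 and 0.423 CPM in Ctrl and to 0.035 and 2.84 CPM in cKO sPre-B cells, and Mcpt4 and Tpsb2 of that list were at 0 in every library. The part of these cells in the Retn and Mcemp1 levels was not tested.

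Fap, a serine protease of activated fibroblasts on chromosome 2, was at 0.0374 and 0.0837 CPM in Ctrl eLPre, 0.261 and 0.441 CPM in cKO eLPre, 0.0610 and 0.0730 CPM in Ctrl sPre and 3.12 and 2.16 CPM in cKO sPre-B cells. Both cKO eLPre libraries lay above both Ctrl eLPre libraries, and the cKO sPre libraries lay higher again. Next to Fap lies Gcg, the glucagon gene and also one of the 52, with 86 and 44 counts in cKO sPre-B cells, 3 and 1 in Ctrl sPre-B cells and 1 count in the 4 eLPre libraries together. Of the genes on either side of this pair, Dpp4 was lower in cKO sPre-B cells (Log2FC −0.52 ± 0.14 SE, adjusted P = 0.0225, edgeR) and Ifih1, a sensor of double-stranded RNA, was higher (Log2FC 2.05 ± 0.30, adjusted P = 0.00126).

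Klkb1, the plasma prekallikrein gene of liver, had 0 counts in both Ctrl eLPre libraries and 30 and 26 counts in the cKO eLPre libraries, then 2 and 0 counts in Ctrl sPre and 141 and 137 counts in cKO sPre-B cells. More than 3 counts were thus found only in the 4 cKO libraries. Akr1b7, an aldo-keto reductase, was at 2.12 and 1.48 CPM in cKO sPre-B cells and at 0.205 and 0.286 CPM in cKO eLPre-B cells, against at most 0.0854 CPM in the Ctrl libraries. Sult6b2, a sulfotransferase, was at 1.04 and 0.559 CPM, and Pon1, a paraoxonase of the liver, at 0.435 and 0.466 CPM, both in cKO sPre-B cells. Myoc, the myocilin gene of the eye, had 51 and 41 counts there.

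Of genes with a role in the immune system, Il17f, a cytokine of T cells, was at 0.156 and 0.167 CPM in Ctrl eLPre, 0.391 and 0.573 CPM in cKO eLPre, 0.0122 and 0.0292 CPM in Ctrl sPre and 0.800 and 0.906 CPM in cKO sPre-B cells. Il17a, the next gene on one side, had 2 counts in the 8 libraries together. Havcr2, which codes for the inhibitory receptor TIM-3, was at 0.741 and 0.466 CPM and Clec1a, a C-type lectin receptor, had 42 counts in each cKO sPre library. The V segments Trav14n-3 and Trav13n-4 had 51 and 80 counts and 53 and 67 counts in cKO sPre-B cells, and 1 count each in the other 6 libraries together. None of the 114 other Trav segments in the table had more than 10 counts in a cKO sPre library, and duplicated segments with near-identical sequence make these counts uncertain. The constant region gene Trac had 3 and 18 counts in cKO and 8 and 7 counts in Ctrl sPre-B cells. The 15 genes of T and NK cells summed to 4.54 and 4.61 CPM in Ctrl and to 3.71 and 3.62 CPM in cKO sPre-B cells, and of the 9 that were tested 0 were called higher and 1 lower. Of single T cell genes, there were 46 and 59 counts of Cd3e in Ctrl and 105 and 121 in cKO (Log2FC 0.61 ± 0.42 SE, adjusted P = 0.298, edgeR), 0 and 2 against 5 and 15 counts of Trbc2 and 0 and 3 against 2 and 13 counts of Trbc1, both not tested. The part of T cells in the levels of Il17f, Havcr2 and the V segments was not tested. The 8 dendritic cell genes summed to 313 and 357 CPM in Ctrl and to 615 and 566 CPM in cKO sPre-B cells, with 3 called higher and 1 lower. Itgax made up most of that sum in cKO, at 65.2 and 118 CPM in Ctrl and 408 and 351 CPM in cKO, while Tcf4 was at 233 and 225 against 164 and 176 CPM. Their part in the levels of Havcr2 and Clec1a was not tested.

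Gm13271, Gm13272, Gm13279 and Gm13285 belong to the interferon-zeta (limitin) family on chromosome 4, within 200 kb of each other. Their summed level was 1.93 and 2.22 CPM in Ctrl eLPre, 6.35 and 6.63 CPM in cKO eLPre, 0.256 and 0.190 CPM in Ctrl sPre and 2.91 and 1.90 CPM in cKO sPre-B cells. The level was therefore higher in the cKO than in the Ctrl libraries of the same stage and lower in sPre- than in eLPre-B cells of the same genotype. Ifnz itself, over the limit in Ctrl sPre replicate 2 and also left out by name, showed 0.835 and 0.478 CPM in Ctrl eLPre, 2.95 and 2.93 CPM in cKO eLPre, 0.0732 and 0.175 CPM in Ctrl sPre and 1.38 and 0.804 CPM in cKO sPre-B cells. Since these genes are near-identical copies, reads could be shared among them and their counts are not independent of each other.

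Regulators of transcription and chromatin made up 6 genes. Grhl3, a transcription factor of epithelia, was at 2.90 and 0.906 CPM in cKO sPre-B cells, the widest ratio between these replicates, and at most 0.0876 CPM in the other 6 libraries. Hoxa10, a homeobox factor of early haematopoietic cells, was at 0.0499 and 0.0598 CPM in Ctrl eLPre, 1.03 and 0.720 CPM in cKO eLPre, 0 and 0.0584 CPM in Ctrl sPre and, with 51 and 69 counts, at 0.584 CPM or slightly more in cKO sPre-B cells. It was thus highest in cKO eLPre-B cells, where it also met the same rule applied to eLPre, as Tmem236 did. The genes around it differed, as Mir196b had 31 and 23 counts in cKO and 0 and 1 in Ctrl sPre-B cells, Hoxa9 was at 498 and 494 counts in cKO and at 74 and 72 counts in Ctrl sPre-B cells, and Hoxa11 had at most 4 counts in any library. Fezf2, a zinc finger factor of brain and thymus, had 0 counts in all 4 Ctrl libraries, 8 and 7 in cKO eLPre and 37 and 36 in cKO sPre-B cells. Aire, which drives expression of tissue genes in the thymus, had 2 and 0 counts in Ctrl and 48 and 53 counts in cKO sPre-B cells. Kdm4d, a histone demethylase, was at 1.19 and 0.677 CPM and Hormad1, a protein of meiotic chromosomes, at 0.612 and 0.508 CPM in cKO sPre-B cells.

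The remaining protein-coding genes act in cilia, the cytoskeleton, signalling or protein turnover. Efcab3, an EF-hand protein, had 174 and 170 counts in cKO sPre-B cells, 2 and 0 in Ctrl sPre-B cells and 0 in all 4 eLPre libraries. Cfap206, of cilia and flagella, had 0 counts in both Ctrl sPre libraries and 78 and 37 counts in cKO sPre-B cells, at least 28.4-fold higher. The axonemal dynein Dnah3 was at 0.588 and 0.576 CPM. Ccser1 at 1.42 and 1.17 CPM, Stard13 at 1.29 and 0.762 CPM, and Plekhg4 at 0.447 and 0.508 CPM were at 0.231 CPM or less in each Ctrl library. Lrrc7, a scaffold of neuronal synapses, was at 0.859 and 0.339 CPM in cKO sPre-B cells. Rnf152, a ubiquitin ligase, Asb5, Fam83a and BC016579 lay between 0.306 and 0.635 CPM in the cKO sPre libraries.

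Of the 10 long non-coding RNAs and pseudogenes, B930025P03Rik was highest, at 1.61 and 2.16 CPM in cKO sPre-B cells, 0.0854 and 0.0146 CPM in Ctrl sPre-B cells and 0 in all 4 eLPre libraries. Dnm3os, the host transcript of Mir199a-2 and Mir214, was at 1.18 and 0.753 CPM. It overlaps Dnm3, which was at 3.05 and 1.77 CPM in cKO and 0.232 and 0.277 CPM in Ctrl sPre-B cells, so the counts of the pair may hold reads of each other. A030001D20Rik was at 1.08 and 0.618 CPM, Gm10768 at 0.859 and 0.559 CPM, and the other 6 at 0.305 to 0.659 CPM. Per kb of merged GENCODE exon, Slc47a1 had the highest mean level in cKO sPre-B cells with 2.10 CPM per kb, followed by Trav14n-3 with 1.77, Retn with 1.71 and Gm13279 with 1.59 CPM per kb. For Gm13279 the merged exon held 549 bases, while RefSeq gives a longer span (88797237 to 88798204), so its place is uncertain. The lowest were Rnf152 with 0.0368 and Dnah3 with 0.0407 CPM per kb.

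**Figure D2:**
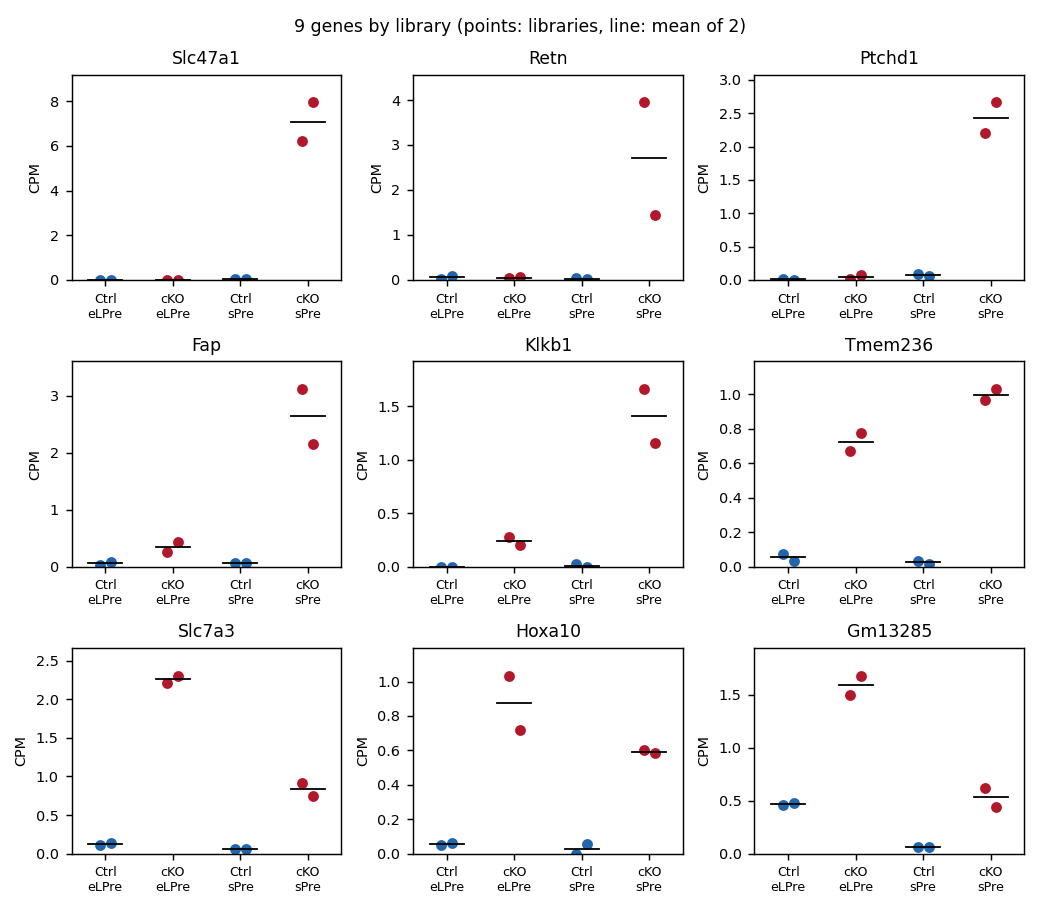
CPM of 9 of the genes in the 2 libraries (points) and their mean (line) of each group, with a separate axis from 0 for each gene. Slc47a1, Retn and Ptchd1 were at 0.0956 CPM or less outside cKO sPre, Fap and Klkb1 also at a lower level in cKO eLPre, Tmem236 at 0.670 to 1.03 CPM in the cKO libraries of both stages, and Slc7a3, Hoxa10 and Gm13285 were highest in cKO eLPre.

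The rule did not use the eLPre libraries, and the difference between the genotypes was tested there. Over genes, same-numbered eLPre and sPre libraries of a genotype deviated together (correlation 0.395 in Ctrl and 0.254 in cKO), and replicate 2 held Y-linked counts at both stages in Ctrl, so the eLPre test may not be independent of the sPre selection if stages share animals. In cKO eLPre-B cells 19 of the 52 genes were higher than in Ctrl eLPre-B cells and 0 were lower (36.5%, adjusted P under 0.05, edgeR quasi-likelihood test). Over all 17700 genes tested, 14.5% were called higher and 16.9% lower. At an unadjusted P under 0.05, 23 of the 52 were higher and 0 lower, and DESeq2 called 16 higher and 0 lower. The median Log2FC of the 52 genes was 1.46, or 1.35 with the genes at 0 in Ctrl eLPre set to their lower bound (0 where they had no more than 3 counts in cKO eLPre), against −0.06 over all genes tested. Both cKO libraries were above both Ctrl libraries for 31 of the 52 genes, which was the case for 40.5% of all genes tested, and below both for 1 gene, against 24.4%.

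All 52 genes passed the expression filter, which their cKO sPre counts sufficed to meet, so neither the share called nor the median Log2FC describes genes readable in eLPre, and neither is given as support. In eLPre-B cells 28 of them had at least 10 counts in both libraries of a genotype, and 18 of the 19 called genes were among these. The other 24 genes were close to the depth limit in eLPre, and a difference there was mostly not detectable. When 1 library was left out, the number of genes called higher was 12 without Ctrl eLPre replicate 1, 14 without Ctrl eLPre replicate 2, 11 without cKO eLPre replicate 1 and 13 without cKO eLPre replicate 2. Slc7a3, Tmem236, Klkb1, Hoxa10, Gm13285, Gm13272, Fap, Vmn2r57 and Akr1b7 were called in each of these 4 fits, and also with each of the other 6 alternatives.

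The lowest adjusted P was found for Slc7a3, with 19 and 12 counts in Ctrl and 237 and 298 counts in cKO eLPre-B cells (Log2FC 3.94 ± 0.32 SE, adjusted P = 8.77e-05, edgeR). Tmem236 followed with 12 and 3 against 72 and 100 counts (Log2FC 3.41 ± 0.48, adjusted P = 0.00124). Hoxa10, next after Klkb1, had 8 and 5 against 111 and 93 counts (Log2FC 3.81 ± 0.67, adjusted P = 0.00355). Slc7a3, Tmem236 and Hoxa10 were also among the 12 genes that reached 0.3 CPM in both cKO eLPre libraries. Klkb1, at 0 in Ctrl, was at least 19.3-fold higher in cKO eLPre-B cells (adjusted P = 0.0024, edgeR), and Fezf2, also at 0, at least 5.16-fold higher (adjusted P = 0.0197). Their fitted Log2FC depends on the prior count and is no bound.

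Of the interferon-zeta-like genes, 3 of 4 were higher in cKO eLPre-B cells, against 14.5% of all genes tested, and as near-identical copies they are not separate calls. Gm13285 had 73 and 40 against 161 and 217 counts (Log2FC 1.59 ± 0.31, adjusted P = 0.00562, edgeR), Gm13272 had 76 and 42 against 162 and 214 (Log2FC 1.52 ± 0.30, adjusted P = 0.00572) and Gm13279 had 119 and 66 against 255 and 339 (Log2FC 1.54 ± 0.46, adjusted P = 0.0336). Gm13271 did not pass the test, with 42 and 38 against 104 and 87 counts (Log2FC 1.05 ± 0.42, adjusted P = 0.091).

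Among the secreted proteins and enzymes, Fap with 6 and 7 against 28 and 57 counts (Log2FC 2.46 ± 0.49, adjusted P = 0.00634, edgeR) and Akr1b7 with 5 and 3 against 22 and 37 counts (Log2FC 2.68 ± 0.55, adjusted P = 0.007) were higher with Klkb1. Among membrane proteins, Vmn2r57 (Log2FC 2.58 ± 0.52, adjusted P = 0.00646) and Asic5, with 0 and 1 against 11 and 11 counts (Log2FC 3.97 ± 0.90, adjusted P = 0.0111), were higher besides Slc7a3 and Tmem236. Havcr2 with 11 and 3 against 31 and 54 counts (Log2FC 2.48 ± 0.57, adjusted P = 0.0117) and Il17f with 25 and 14 against 42 and 74 counts (Log2FC 1.40 ± 0.41, adjusted P = 0.0319) were higher among the 5 immune genes, where 14.5% of all genes tested were.

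The remaining called genes were Plekhg4 (Log2FC 2.04 ± 0.42, adjusted P = 0.00743, edgeR), Asb5 (2.23 ± 0.56, adjusted P = 0.017), Cfap206 (3.94 ± 0.97, adjusted P = 0.0187), Gm10768 (2.28 ± 0.66, adjusted P = 0.0301) and Fam83a (1.71 ± 0.55, adjusted P = 0.044). Il17f, Gm13279 and Fam83a were lost in every fit with 1 library left out, and Il17f, Gm10768 and Fam83a were not called with DESeq2. Of the 10 long non-coding RNAs and pseudogenes, 1 (Gm10768) was called, near the 14.5% of all genes tested. Plekhg4 overlaps Slc9a5, which was higher as well (Log2FC 0.86 ± 0.21 in eLPre-B cells, adjusted P = 0.0164), so its counts are uncertain.

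Of the 33 genes not called, 3 (Efcab3, B930025P03Rik and Trav14n-3) had 0 counts in all 4 eLPre libraries, which allows up to 3 counts in each. The SE of the other uncalled genes had a median of 0.78, against 0.55 for the called genes. Slc47a1, the gene with the highest sPre level, had 1 and 0 counts in Ctrl and 1 and 0 counts in cKO eLPre-B cells, so a difference was not detectable at this depth. Retn (Log2FC −0.25 ± 0.87, adjusted P = 0.86, edgeR) and Grhl3 (0.32 ± 1.12, adjusted P = 0.861) had few counts and wide errors. Kdm4d, with 75 and 19 against 73 and 95 counts, was at 0.3 CPM or more in both cKO eLPre libraries without passing the test (Log2FC 0.81 ± 0.46, adjusted P = 0.222). Log2FC was below 0 for 8 genes, none of which passed the test.

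**Figure D3:**
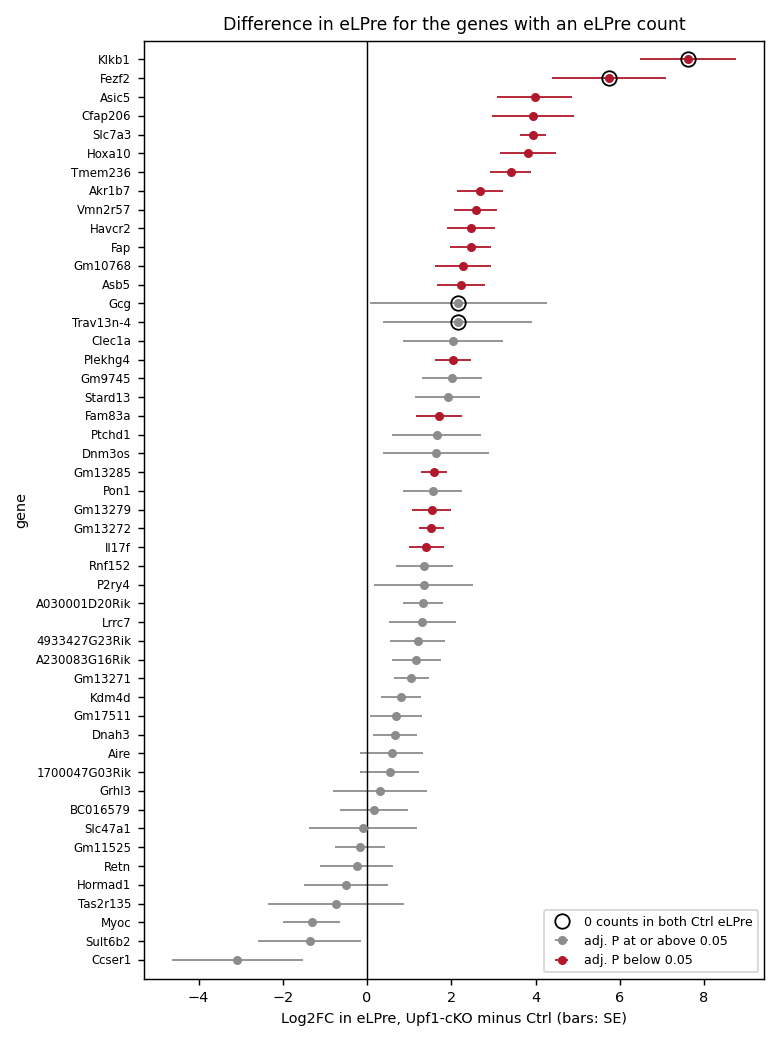
Log2FC with SE between Upf1-cKO and Ctrl eLPre-B cells for the 49 genes with an eLPre count, red where the adjusted P was below 0.05 and circled where both Ctrl libraries held 0 counts, so that the value depends on the prior count. The 19 called genes lie to the right of 0, and the 8 genes to the left of 0 are grey.

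By level, Ctrl eLPre-B cells were under 0.1 CPM in both libraries for 38 of the 52 genes, at 0.3 CPM or more in both for 3 (Gm13279, Gm13272 and Gm13285) and in between for 11. In cKO eLPre-B cells the numbers were 16, 12 and 24. The description "detected only in Upf1-cKO small pre-B" therefore holds against Ctrl sPre-B cells and not against eLPre-B cells, where 12 genes were also detected in cKO and 3 of them in Ctrl. Under 0.1 CPM in both eLPre groups were 16 genes, including Slc47a1, Retn, Ptchd1, Grhl3, Efcab3, Ccser1, Gcg and both Trav segments. These 16 had a median of 1.11 and 0.715 CPM in cKO sPre-B cells, and the 12 genes detected in cKO eLPre had 0.712 and 0.571 CPM. In Ctrl cells, both sPre libraries were below both eLPre libraries for 18 genes and above both for 11. The rule held both Ctrl sPre libraries under 0.1 CPM, so these numbers are not read as a change between stages. Their share over all genes was not counted.

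The genes on either side of each of the 52 and those that overlap it were read from the annotation, which gave 113 distinct neighbours, 83 of them tested. In sPre-B cells 28 of the 83 were higher in cKO (33.7%) and 8 were lower (9.64%), where 19.8% and 14.9% of all genes tested were called. This is the comparison that chose the 52 genes, and nothing is read from these counts. In eLPre-B cells 23 of the 83 were higher (27.7%, against 14.5%) and 10 lower (against 16.9%). Of these 23, the 5 genes Ifnz, Gm13275, Gm13286, Gm13287 and Gm13289 lie in the interferon-zeta cluster and, as near-identical copies, are not separate calls.

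Several neighbours were themselves read mainly in cKO cells. Abcc2, an export pump of the liver 471 bases from Gm10768, was at 0.110 and 0 CPM in Ctrl and 4.40 and 3.14 CPM in cKO sPre-B cells (Log2FC 5.92 ± 0.78, adjusted P = 0.000763, edgeR). Icosl, the ligand of the costimulator ICOS and a neighbour of Aire at 25758 bases, was at 0.671 and 0.919 CPM in Ctrl and 15.9 and 11.99 CPM in cKO (Log2FC 4.07 ± 0.31, adjusted P = 5.89e-05). Tmprss7, 457 bases from BC016579 (Log2FC 3.77 ± 0.36, adjusted P = 0.000165), and Idi2, 4620 bases from Gm9745 (Log2FC 3.17 ± 0.39, adjusted P = 0.000517), were higher too. These examples were chosen after the values were seen.

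Other neighbours were read at more than 1 CPM in all 4 groups. Kdm4d lies 82 bases from Cwc15, which was at 43.9 and 43.2 CPM in Ctrl and 38.7 and 42.8 CPM in cKO sPre-B cells (Log2FC −0.15 ± 0.11, adjusted P = 0.308, edgeR). Lrrc7 lies 96 bases from Lrrc40, at 24.0 and 20.7 CPM in Ctrl and 63.5 and 62.5 CPM in cKO (Log2FC 1.44 ± 0.09, adjusted P = 3.63e-05). Cyp4v3, 10966 bases from Klkb1, was at 2.11 and 2.22 CPM in Ctrl and 9.09 and 8.03 CPM in cKO (Log2FC 1.92 ± 0.19, adjusted P = 0.000172). Within 10 kb, 43 distinct neighbours were tested, and 21 of them lay at 1 CPM or more in both Ctrl sPre libraries.

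**Figure D4:**
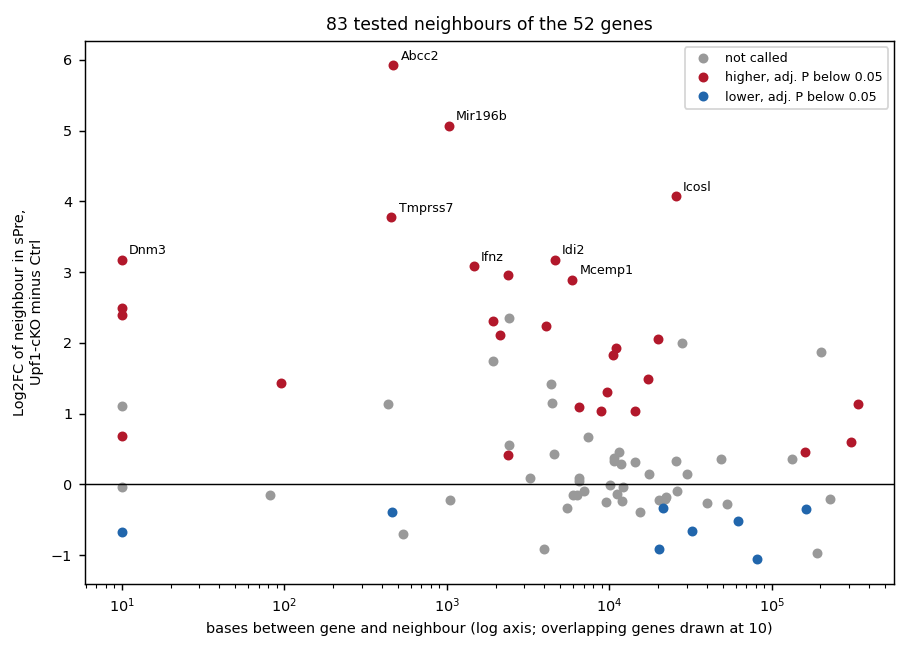
Log2FC between Upf1-cKO and Ctrl sPre-B cells of the 83 tested neighbours against the bases between the neighbour and the nearest of the 52 genes (log axis, overlapping genes drawn at 10), coloured by call. Of the points, 28 are called higher and 8 lower, and the highest values, Abcc2 and Mir196b, lie 471 and 1032 bases from their gene.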

How the data were processed

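Total RNA of sorted eLPre- and sPre-B cells, depleted of ribosomal RNA, was sequenced in 8 libraries, 2 for each of 4 groups. The authors deposited 1 table of counts per gene. Per the labels and the methods of the study, reads were trimmed with Trim Galore, aligned to mm10 with HISAT2 as read pairs and without strand, and counted with featureCounts. No other column of values was present. Gene names came from RefSeq (25275 IDs named, 1904 not), exons from GENCODE and promoter windows from RefSeq, all on GRCm38.

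CPM was the count divided by the total of the library, and totals were 68516857 to 160426338 counts. A limit of 3 counts corresponds to 0.0187 to 0.0438 CPM, and limits and 95% intervals cover counting error only. Differences were tested with edgeR (version 4.0.16, R 4.3.3), with TMM scaling, the filter filterByExpr and the quasi-likelihood test over all 8 libraries. The SE given with a Log2FC was calculated as its absolute value divided by the square root of the F statistic of that test. P-values were adjusted by Benjamini-Hochberg over 17700 genes, with a threshold of 0.05, and the common biological coefficient of variation was 0.174. On simulated counts of the eLPre comparison with 17400 genes, 192 of 196 genes changed by a Log2FC of 3 were recovered (98.0%), 0 with the wrong sign, beside 11 false calls. The changed genes were drawn at random from all genes that passed the filter, with the same spread for every gene. The recovery therefore does not describe genes with few eLPre counts, which many of the selected genes had.

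The 52 genes and the gene lists were chosen with earlier results of these data known. The rule for named genes took those with the highest cKO sPre levels or ratios, the lowest adjusted P in eLPre, 0 counts in Ctrl sPre, a place near each other, a value near the limits or membership of a listed family, which gave 37 of the 52. The remaining genes, the order by role, the neighbours given as examples and the position range of TATAAA were chosen after values were seen. Alternatives were other limits of the rule, other scaling (TMM-scaled totals, totals without immunoglobulin genes, median-ratio factors), no filter, the likelihood-ratio test, DESeq2 (version 1.42.0), the 4 eLPre libraries alone, a replicate block, and leaving out each library. Names from a supplement of the study were added as an alternative after the data were seen.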

Additional observations from a re-analysis of the deposited data

Results flagged for a closer look

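Myoc was lower in both cKO than in both Ctrl libraries of eLPre-B cells, at counts near the limit of 3, and higher in sPre-B cells by selection. In eLPre-B cells it had 9 and 5 counts in Ctrl (0.0561 and 0.0598 CPM) and 3 and 3 counts in cKO (0.0279 and 0.0232 CPM), a Log2FC of −1.32 ± 0.69 SE that did not pass the threshold (adjusted P = 0.178, edgeR quasi-likelihood test). In sPre-B cells it had 4 and 2 counts in Ctrl and 51 and 41 counts in cKO, as the selection requires. The difference between the stages was not tested.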

How the results depend on the processing

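The number of genes found by the rule was 28 with a Ctrl limit of 0.05 CPM and 181 with 0.2 CPM, 27 with a cKO limit of 0.5 CPM and 99 with 0.2 CPM, and 69 to 113 when 1 sPre library was left out, where the rule rests on fewer samples. It was 53 with TMM-scaled totals, of which 45 were among the 52, 52 without immunoglobulin genes in the totals and 55 with names from the supplement, an alternative chosen after seeing the data. The number of genes higher in cKO eLPre-B cells was 16 with DESeq2, 23 with the likelihood-ratio test, 17 with the 4 eLPre libraries alone, 19 with median-ratio factors and 19 without a filter, and 11 to 14 with 1 eLPre library left out, where the lone library is assumed to vary like the other groups. No gene was called lower under any of these settings. The median Log2FC ranged from 1.30 to 1.62 with 1 library left out and was 1.38 with DESeq2. Of 487 values of single genes under the alternatives, 429 kept direction and side of the threshold, 33 lost and 6 gained the call, and 19 changed sign. The sign changes were in 12 genes that were not called, each when 1 library was left out, and the cause was not tested.

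Their lowest and highest Log2FC with 1 eLPre library left out were −2.25 and 2.11 for Slc47a1, −0.99 and 0.81 for Retn, −0.50 and 5.19 for Ptchd1, −0.22 and 1.35 for Grhl3, −0.067 and 4.87 for Dnm3os, −1.55 and 2.35 for P2ry4, −1.51 and 1.45 for Hormad1, −0.90 and 0.34 for Gm11525, −0.85 and 1.88 for BC016579, −0.14 and 1.096 for Aire, −3.73 and 3.06 for Tas2r135 and −0.095 and 1.27 for 1700047G03Rik.

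A fit with a replicate block gave 19 genes higher and 0 lower in eLPre-B cells, with a median Log2FC of 1.49. Same-numbered Ctrl and cKO libraries deviated together with a correlation of 0.155 in eLPre and 0.0858 in sPre over genes, and same-numbered libraries of the 2 stages with 0.395 in Ctrl and 0.254 in cKO. With only 2 pairs a stage, Ctrl and cKO libraries are taken to share only a number. For neighbours in sPre-B cells the counts higher and lower were 32 and 9 with the block, 28 and 9 with DESeq2 and 26 and 9 with median-ratio factors. In eLPre-B cells they were 23 and 12, 23 and 10, and 22 and 9.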
